A study of Mus musculus with 8 samples.

Results

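The 10 genes described here encode enzymes of branched-chain amino acid and propionate breakdown: Bckdha, Bckdhb, Dbt, Ivd, Mccc1, Mccc2, Hibadh, Acad8, Pcca and Pccb. They were chosen by symbol, as the rows of the count tables whose Ensembl identifiers carry these symbols on the GRCm38 mouse genome, and are 10 of 52636 genes in the tables and of 15248 genes tested. The choice was made with earlier results of these data known. Livers came from 8 male wild-type C57BL/6J mice, 4 given AAV8-TBG-GFP and 4 given AAV8-TBG-AGXT, here called AAV8-GFP and AAV8-AGXT. The vector, adeno-associated virus of serotype AAV8, reaches the liver well and carried either GFP or human AGXT, the enzyme that turns glyoxylate into glycine. The TBG promoter, from thyroxine-binding globulin, limits both transgenes to hepatocytes. All mice received the virus at 7 weeks of age and, from 8 weeks of age, ate for 24 weeks a diet rich in fat, cholesterol and fructose that brings on steatohepatitis, so both groups are diseased livers and neither is a chow-fed control. RNA of whole liver was sequenced, 1 library per mouse, and livers carry the number of their mouse: 303, 311, 314 and 315 received GFP, and 308, 309, 316 and 319 received AGXT.

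Leucine, isoleucine and valine are broken down in mitochondria. After transamination, the branched-chain 2-oxoacid dehydrogenase complex (BCKDH) commits their carbon skeletons to oxidation, and a separate acyl-CoA dehydrogenase then opens the branch of each amino acid. Leucine ends as acetyl-CoA and acetoacetate, whereas valine and isoleucine yield propionyl-CoA, which propionyl-CoA carboxylase and later steps turn into succinyl-CoA for the TCA cycle. Liver is known for strong BCKDH activity and for weak branched-chain aminotransferase, and it receives much of its substrate as 2-oxoacids from muscle.

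Between 17095433 and 28780140 read pairs per liver were counted on genes, and each of the 10 genes had between 619 and 8067 counts in every liver. Depth did not separate the groups (medians of 22853957.5 and 18470606.5 counts, two-sided exact permutation test, p = 0.171, n = 4 per group). Liver 308 had the lowest share of read pairs counted on genes, 56.3% of all tallied. Expression is given as CPM, the counts-per-million value, scaled by TMM factors, which correct for library composition. The mouse Agxt row held 148 to 180 CPM in AAV8-GFP livers and 201 to 405 CPM in AAV8-AGXT livers (log2 fold change 0.90, edgeR quasi-likelihood test, adjusted p = 0.0489), and whether reads of the human transgene were counted there was not tested.

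All 10 genes had a higher mean in AAV8-AGXT livers with TMM scaling, and 8 of them did with total counts and no composition factor, where Bckdhb and Hibadh turned lower. Bckdha, Mccc2 and Pccb rose, by 1.59-fold, 1.49-fold and 1.47-fold. At an adjusted p under 0.05 in edgeR's quasi-likelihood test these were 3 of 10 genes, against 2.45% of all tested genes called higher and 1.9% called lower. The other 7 did not pass, among them Ivd with an adjusted p of 0.0523. The median log2 fold change of the 10 genes was 0.39 and that of all tested genes was 0.018, and 52.3% of all tested genes had a log2 fold change above 0. In 6 of the 10 genes every AAV8-AGXT liver lay above every AAV8-GFP liver, as did 8.93% of tested genes, while 7.63% lay wholly below. The 10 genes and the lists below were chosen with earlier results of these data known. Shares of all tested genes are thus a background and test no set. In whole liver, a change in the number of cells of a type cannot be told apart from a change in RNA per cell.

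**Figure D1:**
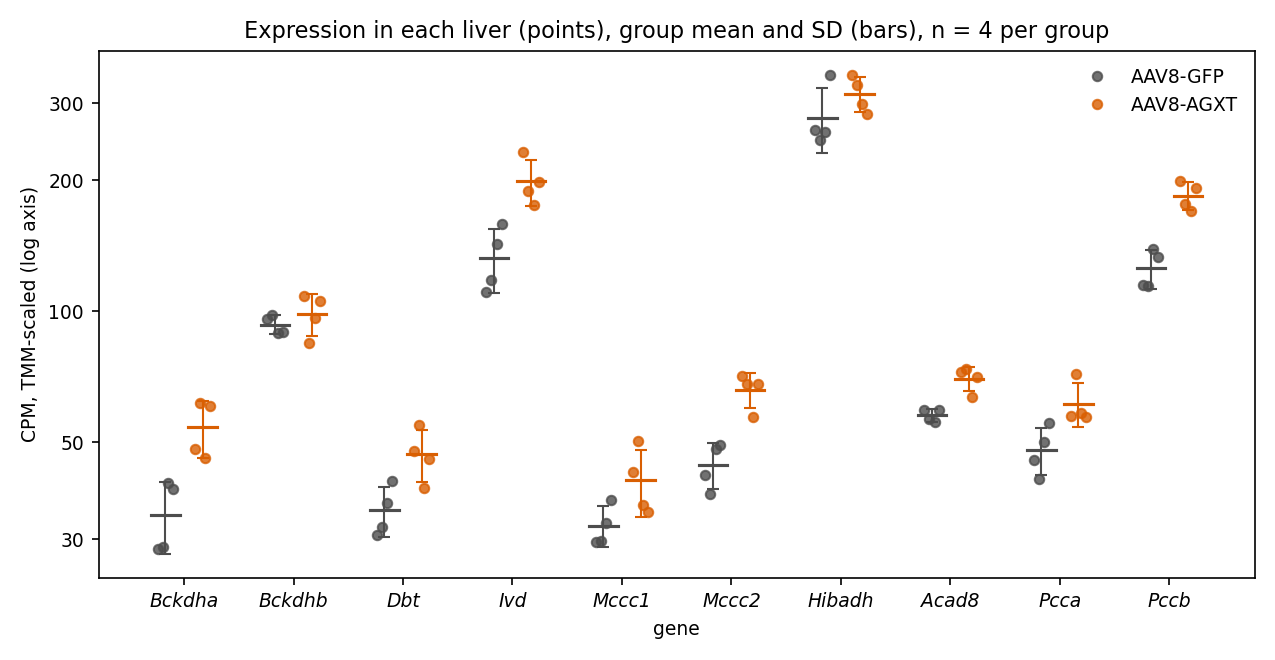
Normalised expression (CPM, log axis) of the 10 genes in each of the 4 AAV8-GFP livers (grey) and 4 AAV8-AGXT livers (orange), with horizontal bars at the group mean and error bars of 1 SD. The points of the groups do not overlap for Bckdha, Ivd, Mccc2, Acad8, Pcca and Pccb, and they lie over each other for Bckdhb, Hibadh, Dbt and Mccc1.

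The start-site regions of partner genes were set beside each other, a choice that came from the calls of single genes. In both biotin carboxylases the beta subunit gene passed the test and the alpha subunit gene did not. Such calls do not show whether the partners changed unequally, and the ratios of these partners within livers overlapped between the groups. The sequences are therefore a description and explain no difference between partners. The 250 bases before the RefSeq transcription start on GRCm38.p6 are printed 5′ to 3′ on the strand of the gene, for Mccc2 and Mccc1 (the methylcrotonyl-CoA carboxylase subunits), for Pccb and Pcca (the propionyl-CoA carboxylase subunits) and for Bckdhb, the gene with the smallest change. Capitals mark exact matches, on either strand, to the CCAAT box (CCAAT, or ATTGG on the other strand), the GC box (GGGCGG, or CCGCCC) and the E-box (CACGTG). The windows of Pcca and Pccb reach 4 and 14 bases into the first exon as GENCODE M21 places it.
Mccc2, chr13:100015640-100015889, minus strand: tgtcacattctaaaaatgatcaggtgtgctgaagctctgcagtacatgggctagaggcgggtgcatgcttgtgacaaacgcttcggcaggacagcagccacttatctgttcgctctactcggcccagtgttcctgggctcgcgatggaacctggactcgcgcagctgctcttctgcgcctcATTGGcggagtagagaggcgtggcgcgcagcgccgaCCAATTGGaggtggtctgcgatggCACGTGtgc
Mccc1, chr3:36000679-36000928, minus strand: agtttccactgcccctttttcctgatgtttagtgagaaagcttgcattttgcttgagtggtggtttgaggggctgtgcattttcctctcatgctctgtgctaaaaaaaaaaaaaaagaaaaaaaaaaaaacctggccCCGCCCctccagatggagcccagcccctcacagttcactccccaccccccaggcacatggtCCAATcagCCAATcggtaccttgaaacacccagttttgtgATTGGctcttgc
Pccb, chr9:101034885-101035134, minus strand: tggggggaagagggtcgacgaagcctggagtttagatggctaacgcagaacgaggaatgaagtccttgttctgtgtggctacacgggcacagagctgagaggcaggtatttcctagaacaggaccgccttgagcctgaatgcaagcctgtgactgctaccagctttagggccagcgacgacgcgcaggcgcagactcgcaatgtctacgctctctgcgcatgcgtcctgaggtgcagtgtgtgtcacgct
Pcca, chr14:122534078-122534327, plus strand: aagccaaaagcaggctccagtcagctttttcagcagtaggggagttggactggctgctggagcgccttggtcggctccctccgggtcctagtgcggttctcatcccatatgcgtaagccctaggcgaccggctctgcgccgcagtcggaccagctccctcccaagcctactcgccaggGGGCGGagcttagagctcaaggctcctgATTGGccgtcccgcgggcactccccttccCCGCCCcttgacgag
Bckdhb, chr9:83924887-83925136, plus strand: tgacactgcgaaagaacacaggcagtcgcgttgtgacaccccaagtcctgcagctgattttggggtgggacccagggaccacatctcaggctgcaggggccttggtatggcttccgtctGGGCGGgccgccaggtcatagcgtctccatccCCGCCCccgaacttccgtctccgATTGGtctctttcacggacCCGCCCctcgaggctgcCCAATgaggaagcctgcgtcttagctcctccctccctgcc

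RefSeq gave such a window for 9 of the 10 genes, all but Dbt. A CCAAT box was present in 7 of the 9 windows, against 34.5% of 27025 promoters of the same length and 36.3% of 10405 promoters of tested coding genes. A GC box was present in 5 of the 9, against 32.9% of all promoters and 57.6% of those of tested coding genes. An E-box was found only for Mccc2, 9 bases before the start, against 6.05% of all promoters and 8.15% of those of tested coding genes. Mccc2 also holds a pair of overlapping CCAAT matches on opposite strands, written CCAATTGG, and the window of Ivd holds 4 CCAAT boxes between 23 and 131 bases before the start. The windows of Pccb and Bckdha hold none of these motifs. The window of Bckdha is not printed, since its RefSeq start lies 220 bases inside the gene as GENCODE places it, and neither is that of Ivd, which reaches 40 bases inside. The windows of Hibadh and Acad8, also not printed, reach 89 and 17 bases inside. All of these windows stay in the counts above. None of the 9 windows holds an NRF1 core (0.781% of all promoters and 1.58% of those of tested coding genes), an estrogen-related receptor element (TCAAGGTCA, 0.366% and 0.259%), a DR1 element (0.037% and 0.0384%), a cyclic AMP response element (TGACGTCA, 1.62% and 2.66%) or a TATA box (TATAAA, 13% and 6.8%), each searched on both strands. These matches describe letters and not binding.

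The BCKDH complex is built from an E1 component of Bckdha and Bckdhb, which decarboxylates the 2-oxoacid, and a core of Dbt (E2), which passes the acyl group to coenzyme A. Bckdha (ENSMUSG00000060376, chromosome 7, 25629946 to 25658981, minus strand) encodes the catalytic alpha subunit of E1. Its expression was 28.4, 28.8, 40.3 and 39.0 CPM in AAV8-GFP livers 303, 311, 314 and 315, and 48.3, 61.6, 46.1 and 60.6 CPM in AAV8-AGXT livers 308, 309, 316 and 319. The groups did not overlap, and within each group a lower and a higher pair of livers stood apart. The mean rose from 34.1 ± 6.40 to 54.2 ± 8.08 CPM (SD over 4 livers), a log2 fold change of 0.67 (SE 0.155, adjusted p = 0.0454 from edgeR), the largest of the 10 genes in the reported fit. Exons of Bckdha share 1171 of their 1899 bases with B3gnt8 on the opposite strand, and since the strand setting of the counting is not given in the sources used here, the Bckdha value is uncertain. B3gnt8 itself was counted at 3.16 to 3.95 CPM in AAV8-GFP livers and 3.55 to 7.73 CPM in AAV8-AGXT livers.

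Bckdhb (ENSMUSG00000032263, chromosome 9, 83925145 to 84124240, plus strand) encodes the beta subunit of E1 and did not pass the test. It held 96.1, 98.2, 89.2 and 89.4 CPM in AAV8-GFP livers and 108, 84.5, 96.3 and 106 CPM in AAV8-AGXT livers. Liver 309, the highest for Bckdha, was the lowest of all 8 for Bckdhb, and the groups overlapped. The log2 fold change was 0.083 (SE 0.106, adjusted p = 0.660 from edgeR), with a 95% interval from -0.15 to 0.32, and it turned to -0.16 with total counts and no composition factor.

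Dbt (ENSMUSG00000000340, chromosome 3, 116513070 to 116549981, plus strand) was at 30.6, 31.9, 36.3 and 40.8 CPM in AAV8-GFP livers and 47.8, 54.9, 39.3 and 45.7 CPM in AAV8-AGXT livers. Its groups overlapped by 1 pair of livers, AAV8-AGXT 316 below AAV8-GFP 315. The log2 fold change of 0.43 (SE 0.13, adjusted p = 0.0822 from edgeR) did not pass. The DESeq2 Wald test, which on simulated counts made more false calls than its threshold allows, gave Dbt an adjusted p of 0.0476.

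BCKDH is switched off by its kinase, Bckdk, switched on by its phosphatase, Ppm1k, and shares its E3 subunit, Dld, with the pyruvate and 2-oxoglutarate dehydrogenases. None of these 3 genes passed the test, and their groups overlapped. Bckdk averaged 20.7 ± 3.32 CPM in AAV8-GFP livers and 22.7 ± 2.18 CPM in AAV8-AGXT livers (SD over 4 livers; log2 fold change 0.13, SE 0.133, adjusted p = 0.557 from edgeR). Ppm1k averaged 47.2 ± 12.3 and 74.4 ± 21.8 CPM (log2 fold change 0.66, SE 0.221, adjusted p = 0.103 from edgeR), and Dld averaged 79.1 ± 15.2 and 90.7 ± 13.2 CPM (log2 fold change 0.20, SE 0.155, adjusted p = 0.447 from edgeR).

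Leucine continues through Ivd, isovaleryl-CoA dehydrogenase, and then through methylcrotonyl-CoA carboxylase, whose alpha subunit Mccc1 carries biotin and whose beta subunit Mccc2 transfers the carboxyl group. Ivd (ENSMUSG00000027332, chromosome 2, 118861954 to 118882909, plus strand) held 110, 118, 142 and 158 CPM in AAV8-GFP livers and 232, 189, 175 and 198 CPM in AAV8-AGXT livers. The groups did not overlap, with the lowest AAV8-AGXT liver 316 above the highest AAV8-GFP liver 315. The mean was 132 ± 22.04 CPM in AAV8-GFP livers and 199 ± 24.3 CPM in AAV8-AGXT livers (SD over 4 livers; log2 fold change 0.59, SE 0.145). The adjusted p of Ivd, 0.0523 from edgeR, missed the threshold, and it was under 0.05 in 4 of 8 other settings.

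Mccc2 (ENSMUSG00000021646, chromosome 13, 99948530 to 100015639, minus strand) was expressed at 42.1, 38.1, 48.3 and 49.3 CPM in AAV8-GFP livers and at 70.8, 68.1, 57.3 and 67.9 CPM in AAV8-AGXT livers. All AAV8-AGXT livers lay above all AAV8-GFP livers, and 316 was again the lowest of its group. The mean rose from 44.4 ± 5.30 to 66.1 ± 5.97 CPM (SD over 4 livers; log2 fold change 0.57, SE 0.113, adjusted p = 0.0349 from edgeR). Mccc1 (ENSMUSG00000027709, chromosome 3, 35959312 to 36000678, minus strand) held 29.6, 29.7, 32.6 and 37.0 CPM in AAV8-GFP livers and 42.7, 50.4, 36.0 and 34.6 CPM in AAV8-AGXT livers. Livers 308 and 309 stood above all AAV8-GFP livers, and 316 and 319 lay within their range. Its log2 fold change was 0.34 (SE 0.137, adjusted p = 0.150 from edgeR), and 613 exon bases of Mccc1 are shared with genes on the opposite strand.

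Valine passes through Acad8, isobutyryl-CoA dehydrogenase, and later through Hibadh, which oxidises 3-hydroxyisobutyrate. Acad8 (ENSMUSG00000031969, chromosome 9, 26974135 to 26999566, minus strand) had the tightest values of the 10 genes, 59.4, 56.6, 55.6 and 59.2 CPM in AAV8-GFP livers and 72.4, 73.7, 63.6 and 70.5 CPM in AAV8-AGXT livers. The groups did not overlap, yet the difference was small. Its log2 fold change was 0.28 (SE 0.085, adjusted p = 0.0822 from edgeR), and it was past the threshold in DESeq2 alone (adjusted p = 0.0329), with the same limit as for Dbt. Hibadh (ENSMUSG00000029776, chromosome 6, 52546228 to 52640389, minus strand) held 260, 247, 257 and 349 CPM in AAV8-GFP livers and 348, 331, 299 and 283 CPM in AAV8-AGXT livers. AAV8-GFP liver 315 was the highest of all 8, and the other 3 AAV8-GFP livers lay below every AAV8-AGXT liver. With all livers the log2 fold change was 0.18 (SE 0.143, adjusted p = 0.449 from edgeR, 95% interval from -0.14 to 0.50), and it became 0.31 without liver 315 and -0.051 with total counts and no composition factor.

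On the isoleucine branch, no gene belongs to the 10. The fixed list of other breakdown steps has 8 genes, of which 3 were called higher, against 2.45% of all tested genes. Acadsb and Hsd17b10, both of this branch, were 2 of them. Acadsb, the dehydrogenase of 2-methylbutyryl-CoA, rose from 63.5 ± 8.10 to 95.3 ± 10.8 CPM (SD over 4 livers; log2 fold change 0.59, SE 0.122, adjusted p = 0.0375 from edgeR). Hsd17b10, which oxidises 2-methyl-3-hydroxybutyryl-CoA and is also a part of mitochondrial RNase P, rose from 182 ± 38.9 to 385 ± 114 CPM (SD over 4 livers; log2 fold change 1.08, SE 0.219, adjusted p = 0.0363 from edgeR). Acat1, the thiolase at the end of the branch, averaged 432 ± 44.4 and 604 ± 90.1 CPM and did not pass (log2 fold change 0.48, adjusted p = 0.0771 from edgeR). Echs1, the enoyl-CoA hydratase shared with valine and fatty acids, averaged 166 ± 18.9 and 217 ± 15.4 CPM and did not pass either (log2 fold change 0.39, adjusted p = 0.0822 from edgeR).

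Propionyl-CoA carboxylase joins a biotin-carrying alpha subunit, Pcca, to a beta subunit, Pccb. Pccb (ENSMUSG00000032527, chromosome 9, 100982032 to 101034898, minus strand) was at 115, 114, 139 and 133 CPM in AAV8-GFP livers and at 199, 176, 170 and 192 CPM in AAV8-AGXT livers. The groups did not overlap, and the gap between them, from 139 to 170 CPM, was wider than the range within either group. Pccb rose from 125 ± 12.7 to 184 ± 13.6 CPM (SD over 4 livers; log2 fold change 0.55, SE 0.112, adjusted p = 0.0363 from edgeR). Pcca (ENSMUSG00000041650, chromosome 14, 122534324 to 122891100, plus strand) held 45.6, 41.3, 50.1 and 55.3 CPM in AAV8-GFP livers and 57.5, 71.7, 58.4 and 57.1 CPM in AAV8-AGXT livers. Every AAV8-AGXT liver was above every AAV8-GFP liver, but 3 of them were close to AAV8-GFP liver 315 and only 309 stood clear. The log2 fold change of Pcca was 0.35 (SE 0.120, adjusted p = 0.107 from edgeR), and 241 of its exon bases are shared with Ggact.

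Over 13 genes that carry propionate on to succinyl-CoA or handle cobalamin, its cofactor, the median log2 fold change was 0.26. Among them 2 rose and none fell, against 2.45% and 1.9% of all tested genes. Both encode subunits of succinyl-CoA synthetase: Suclg1, the common alpha subunit, rose from 213 ± 15.3 to 332 ± 61.04 CPM (SD over 4 livers; log2 fold change 0.64, SE 0.146, adjusted p = 0.0448 from edgeR), and Sucla2, the ATP-forming beta subunit, rose from 86.2 ± 9.68 to 131 ± 10.4 CPM (log2 fold change 0.60, SE 0.113, adjusted p = 0.0341 from edgeR). Suclg2, the GTP-forming beta subunit, averaged 284 ± 38.6 and 277 ± 37.9 CPM, with overlapping groups (log2 fold change -0.039, adjusted p = 0.891 from edgeR). Tcn2, the plasma carrier of cobalamin, averaged 116 ± 5.70 and 123 ± 5.97 CPM (log2 fold change 0.082, adjusted p = 0.606 from edgeR).

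**Figure D2:**
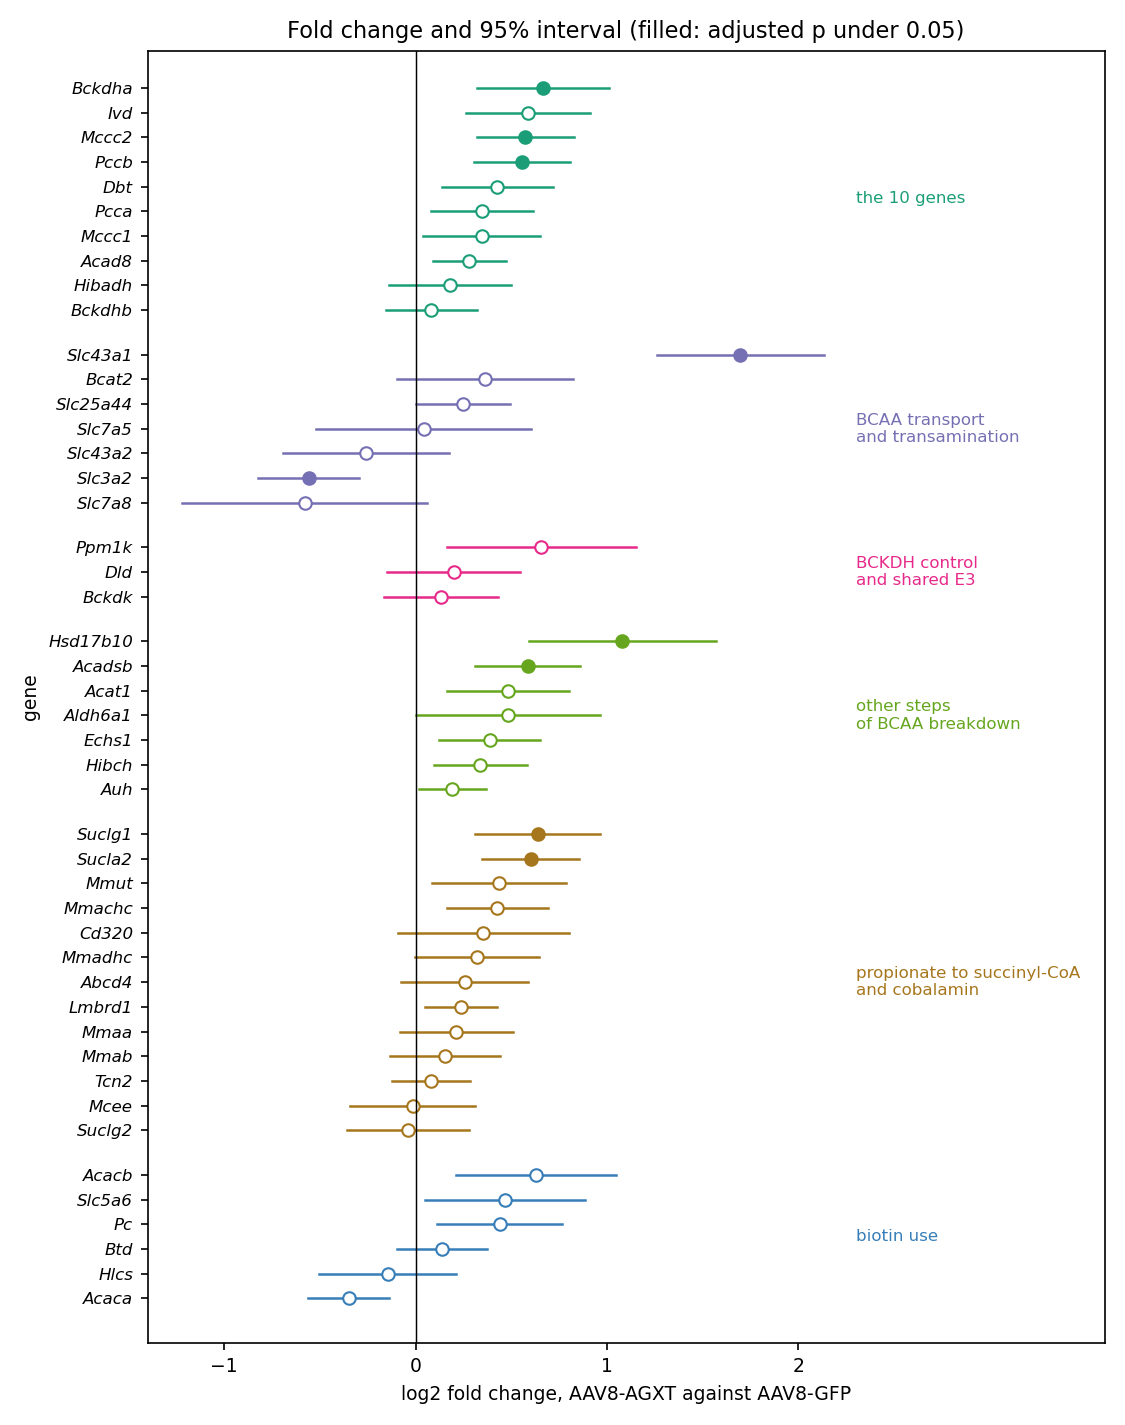
Log2 fold change of AAV8-AGXT against AAV8-GFP (x axis) with its 95% interval for the 10 genes and the tested genes of the 5 fixed lists of the pathway (y axis, 1 gene not shown), coloured by list and filled where the adjusted p is under 0.05. The 10 genes all lie to the right of 0, from 0.083 for Bckdhb to 0.67 for Bckdha, while the transport list spreads from -0.58 to 1.69, and with total counts and no composition factor Bckdhb and Hibadh move to the left of 0.

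Over the 5 fixed lists of other pathway genes, 37 of 38 genes were tested, of which 6 rose, 1 fell and 30 did not pass, with a median log2 fold change of 0.32. The share called in either direction among all tested genes was 4.35%. By list, the counts of higher and lower genes were 3 and 0 of 8 for the other steps of branched-chain amino acid breakdown, 2 and 0 of 13 for propionate and cobalamin, 1 and 1 of 7 for transport and transamination, 0 and 0 of 3 for BCKDH control, and 0 and 0 of 6 for biotin use.

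Both calls among the transport genes were of plasma membrane transporters. Slc43a1, which encodes the amino acid transporter LAT3, rose from 1.71 ± 0.275 to 5.56 ± 0.674 CPM (SD over 4 livers; log2 fold change 1.69, SE 0.196, adjusted p = 0.00992 from edgeR). Slc3a2, the heavy chain that brings LAT1 and LAT2 to the membrane, fell from 79.3 ± 5.21 to 53.8 ± 7.94 CPM (log2 fold change -0.56, SE 0.117, adjusted p = 0.0376 from edgeR). Bcat2, the mitochondrial aminotransferase, averaged 33.3 ± 6.37 and 42.8 ± 11.5 CPM (log2 fold change 0.36, adjusted p = 0.292 from edgeR), and Slc25a44, the mitochondrial carrier of branched-chain amino acids, averaged 44.6 ± 6.05 and 53.0 ± 2.92 CPM (log2 fold change 0.25, adjusted p = 0.188 from edgeR). Bcat1, the cytosolic aminotransferase, was too scarce to test, at 0.153 CPM or less in every liver.

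Among genes that use or supply biotin, the cofactor of Mccc1 and Pcca, the most abundant was Pc, pyruvate carboxylase, at 666 ± 68.8 and 903 ± 131 CPM (SD over 4 livers; log2 fold change 0.44, adjusted p = 0.0990 from edgeR). Acaca, the acetyl-CoA carboxylase of fatty acid synthesis, lay lower in every AAV8-AGXT liver, at 91.9 ± 2.06 against 72.1 ± 6.68 CPM, and did not pass (log2 fold change -0.35, adjusted p = 0.0673 from edgeR).

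Of 5 transcription factors linked to these enzymes or to liver fuel use, 1 was called higher, against 2.45% of all tested genes. It was Ppara, the lipid-sensing receptor that drives fatty acid oxidation genes, which rose from 43.3 ± 5.06 to 80.1 ± 22.1 CPM (SD over 4 livers; log2 fold change 0.89, SE 0.187, adjusted p = 0.0376 from edgeR). Klf15, known for activating amino acid breakdown genes, averaged 131 ± 62.2 and 159 ± 10.4 CPM with overlapping groups (log2 fold change 0.28, adjusted p = 0.583 from edgeR). Ppargc1a, a coactivator of mitochondrial genes, averaged 5.93 ± 0.765 and 8.52 ± 1.64 CPM (log2 fold change 0.52, adjusted p = 0.107 from edgeR). Mlxipl, the carbohydrate-responsive factor ChREBP, averaged 622 ± 217 and 635 ± 115 CPM (log2 fold change 0.029, adjusted p = 0.954 from edgeR). Srebf1, the factor that drives fatty acid synthesis, averaged 158 ± 59.6 and 90.1 ± 26.1 CPM (log2 fold change -0.81, adjusted p = 0.104 from edgeR).

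Partner subunits were compared within each liver, which removes library scaling from the comparison. The Bckdha to Bckdhb ratio of CPM was 0.295, 0.294, 0.452 and 0.437 in AAV8-GFP livers 303, 311, 314 and 315, and 0.446, 0.729, 0.479 and 0.574 in AAV8-AGXT livers 308, 309, 316 and 319. The geometric mean moved from 0.362 to 0.547, and the groups overlapped because liver 308 lay just below liver 314. This difference, 0.60 on the log2 scale, had an adjusted p of 0.171 over 6 ratios (two-sided exact permutation test, raw p = 0.0571, smallest possible p = 0.0286, n = 4 per group).

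None of the other 5 ratios passed, and all of their groups overlapped. The log2 difference was 0.35 for Dbt to Bckdhb, -0.21 for Pcca to Pccb, -0.24 for Mccc1 to Mccc2, -0.51 for Bckdk to Ppm1k and 0.31 for Ivd to Acad8. Their raw p-values lay between 0.0857 and 0.2 (two-sided exact permutation test, n = 4 per group), and the adjusted values between 0.171 and 0.2. For both biotin carboxylases the ratio of the alpha to the beta subunit was lower on average in AAV8-AGXT livers, at 0.331 against 0.383 for Pcca to Pccb and 0.615 against 0.726 for Mccc1 to Mccc2. With 4 livers per group and 6 ratios, 1 ratio with fully separated groups would still have an adjusted p of 0.171, and at least 4 ratios would have to reach the smallest possible p for any to pass 0.05. These adjusted values therefore say nothing on whether the partners changed unequally, nor do the calls of single genes.

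**Figure D3:**
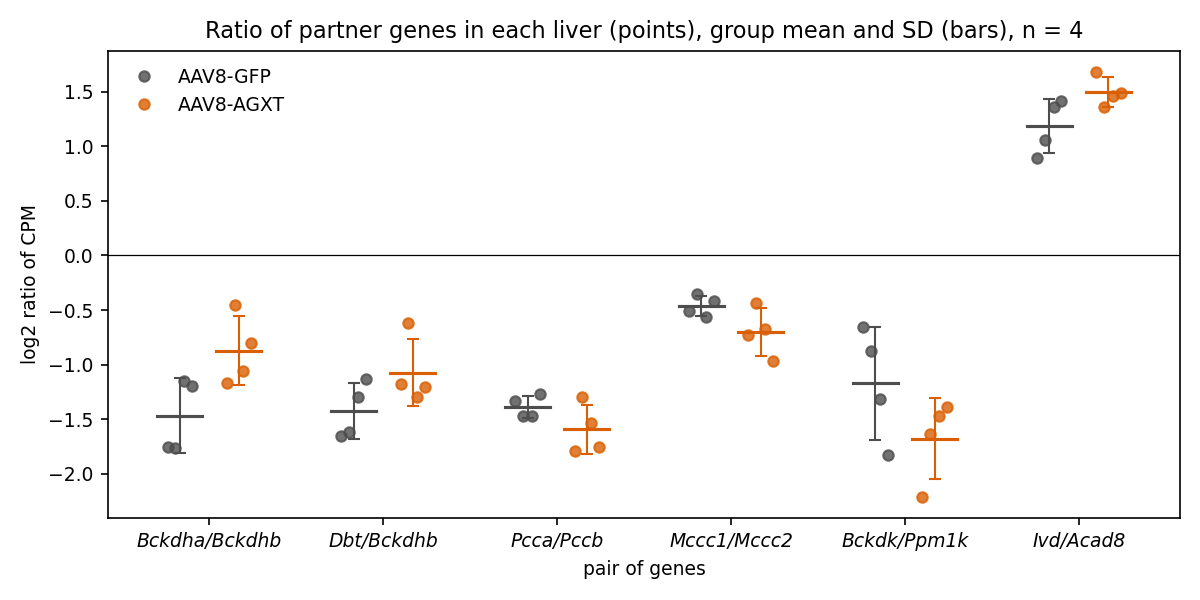
Log2 ratio of CPM of partner genes (y axis) for 6 pairs (x axis), as points for each AAV8-GFP liver (grey) and AAV8-AGXT liver (orange), with the group mean and SD. In all 6 pairs the points of the groups overlap, and the mean shift is widest for Bckdha to Bckdhb, 0.60.

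The 10 genes moved together across livers in part. After log2 CPM was centred per gene, the mean over the 10 genes was -0.31, -0.33, -0.14 and -0.033 in AAV8-GFP livers 303, 311, 314 and 315, and 0.27, 0.29, 0.061 and 0.19 in AAV8-AGXT livers 308, 309, 316 and 319. The AAV8-GFP livers 303 and 311 were thus the low end, and each was the lowest of all 8 livers for 4 genes. Liver 309 was the highest for 5 genes and 308 for 4, while 315, an AAV8-GFP liver, was the highest for Hibadh. Liver 316 stood nearest to the AAV8-GFP livers and still exceeded the median of the 8 livers for 9 of the 10 genes.

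**Figure D4:**
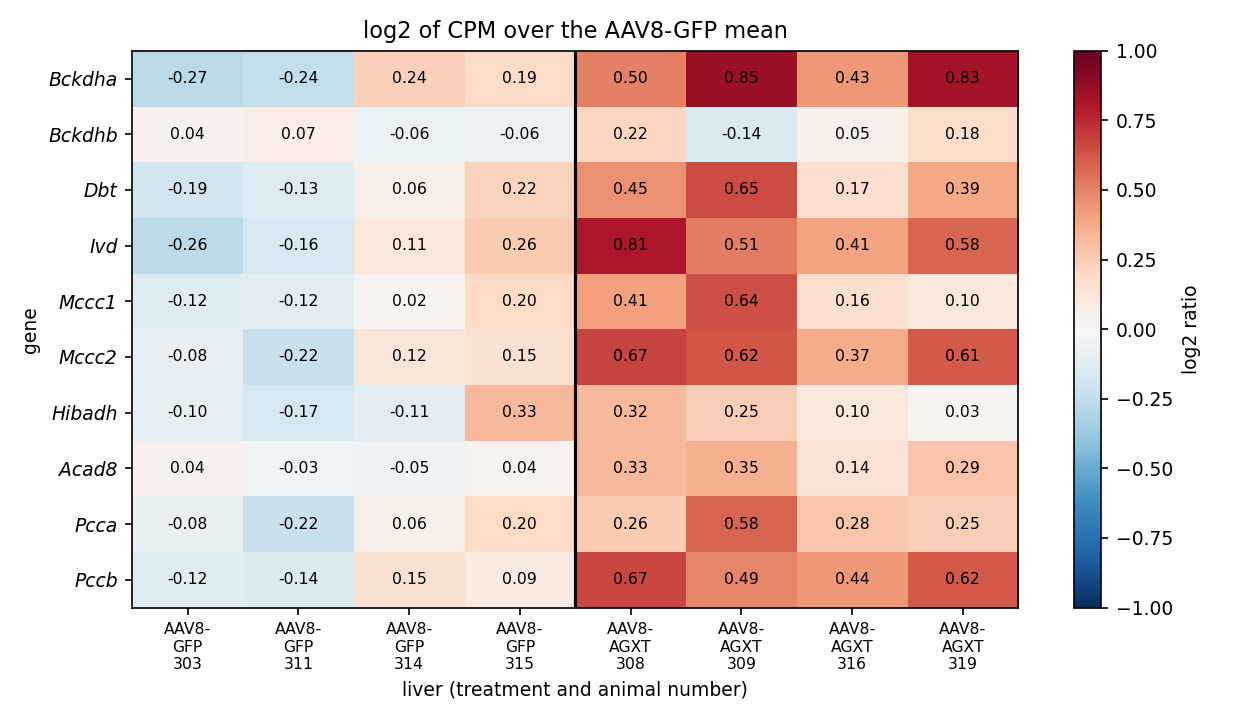
Log2 of the CPM in each liver (columns, grouped by treatment with animal numbers) over the AAV8-GFP mean of the same gene (rows), red above and blue below 0. Bckdha in livers 309 and 319 shows the strongest red, 0.85 and 0.83, while the Bckdhb row stays between -0.14 and 0.22.

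Markers of cell types were summed in each liver. The summed level of 10 hepatocyte markers, which include Alb, Apob and Hnf4a, was 50769 to 61389 CPM in AAV8-GFP livers and 61438 to 84001 CPM in AAV8-AGXT livers, so that liver 316 lay barely above liver 314. Alb made up 49.2% to 56.2% of the sum, and its own groups overlapped. With total counts and no composition factor the sums ran from 57630 to 67390 CPM and from 61404 to 69688 CPM and overlapped. All 10 markers had with TMM scaling a log2 fold change above 0 (median 0.41). Of them 1, Cps1, passed, against 2.45% of all tested genes called higher. For 3 of them every AAV8-AGXT liver lay above every AAV8-GFP liver, as for 8.93% of tested genes. Livers 308, 319, 309 and 316 were in falling order of this sum. The sum of 8 stellate cell and fibroblast markers was 357 to 697 CPM in AAV8-GFP livers and 79.7 to 330 CPM in AAV8-AGXT livers, without overlap in either scaling. Of these 8, 1, Acta2, was called lower, against 1.9% of all tested genes. With TMM scaling, sums overlapped for 10 macrophage markers (509 to 893 and 220 to 784 CPM), 8 lymphocyte markers (14.1 to 21.2 and 7.18 to 14.7 CPM), 5 cholangiocyte markers (225 to 673 and 74.1 to 272 CPM) and 6 endothelial markers (125 to 188 and 134 to 240 CPM), and none of these genes passed. With total counts and no composition factor, the lymphocyte sums did not overlap (15.4 to 24.0 and 5.96 to 14.7 CPM). The macrophage, cholangiocyte and endothelial sums still did. The sum of 6 muscle and adipocyte markers was 19.4 to 74.4 CPM in AAV8-GFP livers and 75.4 to 206 CPM in AAV8-AGXT livers. The sums did not overlap with TMM scaling, but did with total counts and no composition factor (19.8 to 81.2 and 75.4 to 182 CPM). Of these 6, 2 were tested and 1, Cfd, was called higher, against 2.45% of all tested genes. Ckm, Acta1, Adipoq and Plin1 averaged at most 0.120 CPM. The part of cell makeup in the levels of the 10 genes was not tested.

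Levels of different genes were compared per length, as CPM per kilobase of the longest coding transcript in GENCODE M21. In AAV8-GFP livers Hibadh was first at 153 ± 26.0 CPM per kilobase (SD, n = 4), followed by Bckdhb at 63.1 ± 3.12, Pccb at 54.0 ± 5.48 and Ivd at 36.1 ± 6.01, and the ranges of these 4 neighbours did not overlap. Below them, Mccc2, Acad8, Pcca, Bckdha, Mccc1 and Dbt ran from 20.9 ± 2.50 down to 10.6 ± 1.40 CPM per kilobase, and each overlapped the next. In AAV8-AGXT livers Hibadh was again first at 173 ± 16.2 and Dbt last at 14.2 ± 1.95, while Pccb at 79.4 ± 5.85 stood before Bckdhb at 66.8 ± 7.28, a pair whose ranges overlapped by little. Bckdha moved from the eighth to the sixth place, at 28.5 ± 4.26 CPM per kilobase, and its range overlapped those of Mccc2 above and Acad8 below it. The length was chosen after an order by all annotated exons had been seen. By that other length Bckdhb was first in AAV8-GFP livers, Hibadh was at place 3 with 27.3 CPM per kilobase and Mccc1 was last at 2.94. Annotated exons cover 10179 bases in Hibadh and 10952 in Mccc1, where the longest coding transcripts have 1825 and 2455.

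The breakdown of fatty acids, the other large acyl-CoA pathway of mitochondria, was set beside these genes by counts alone. Of 14 genes of mitochondrial fatty acid beta-oxidation, 6 rose and none fell, with a median log2 fold change of 0.57 and every AAV8-AGXT liver above every AAV8-GFP liver for 12. Over all tested genes these shares were 2.45% called higher, 1.9% called lower and 8.93% wholly above. The study had already reported several genes of this list, among them Cpt1a, Acadvl, Hadha and Acaa2, as higher in these AAV8-AGXT livers. The count is therefore no independent comparison. Acyl-CoA dehydrogenases, including Ivd, Acad8 and Acadsb, pass electrons to the flavoprotein of Etfa and Etfb, and Etfdh takes them from there. Etfdh rose from 255 ± 20.3 to 421 ± 39.4 CPM (SD over 4 livers; log2 fold change 0.72, SE 0.120, adjusted p = 0.0278 from edgeR). Etfa (log2 fold change 0.33, adjusted p = 0.143 from edgeR) and Etfb (log2 fold change 0.29, adjusted p = 0.565 from edgeR) did not pass. Cpt1a, the gate for fatty acid entry, had a log2 fold change of 0.73 (adjusted p = 0.0374 from edgeR), Acadvl one of 0.83 (adjusted p = 0.0341) and Hadha one of 0.61 (adjusted p = 0.0365). Etfdh, Acadvl and Hadha share exon bases with a gene on the opposite strand and are uncertain. Hadh (log2 fold change 0.18, adjusted p = 0.403 from edgeR) and Acaa2 (log2 fold change 0.53, adjusted p = 0.0770 from edgeR) did not pass.

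The genes whose pattern over the 8 livers was most like the mean of the 10, by the mean absolute difference of centred log2 CPM, were Lrpprc at 0.031, Mia2 at 0.033, Insr at 0.034, Zdhhc9 at 0.039 and Larp1b at 0.043. Of the 10 genes themselves Dbt was the closest to their mean at 0.054 and Bckdhb the farthest at 0.18. Lrpprc, a mitochondrial RNA-binding protein, averaged 76.4 ± 5.87 and 99.4 ± 4.998 CPM (SD over 4 livers; log2 fold change 0.38, adjusted p = 0.0537 from edgeR). Insr, the insulin receptor, averaged 90.9 ± 10.3 and 117 ± 7.60 CPM (log2 fold change 0.37, adjusted p = 0.0796 from edgeR). The likeness is a description over 8 libraries and carries no test.

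The calls depended on single livers and on scaling. With 1 liver left out, fewer genes passed over the whole table in every fit, so each count is set beside the share of all tested genes called higher in the same edgeR fit. None of the 10 genes passed without AAV8-GFP liver 303 (share 0.742%), 311 (0.013%) or 314 (0.0701%), or without AAV8-AGXT liver 308 (0.544%) or 319 (0.0773%). Without AAV8-GFP liver 315, 4 passed (1.97%), and 2 passed without AAV8-AGXT liver 309 (2.4%) or 316 (1.43%). Without liver 311 the adjusted p was 0.158 for Bckdha, 0.127 for Mccc2 and 0.135 for Pccb, and over all tested genes the number of calls was 2. All 10 log2 fold changes stayed above 0 with each liver left out, the lowest being 0.022 for Bckdhb. With total counts and no composition factor, none of the 10 genes passed (0.944% of all tested genes were called higher), 8 of 10 log2 fold changes were above 0 and the median of the 10 was 0.16, where the median of all tested genes shifted by -0.24 and 14.4% of all calls were higher in place of 56.3%. DESeq2 called 6 of the 10 higher (Bckdha, Ivd, Mccc2, Pccb, Dbt and Acad8), against 6.29% of 16752 genes. DESeq2, the study's own test, made too many false calls on simulated counts and edgeR did not. Those counts were drawn from edgeR's own estimates of spread, with no composition factor, so they cannot rank the tools on these data. The larger number from DESeq2 is not read as stronger evidence. The limma-voom fit called 4, against 2.65% of tested genes.

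**Figure D5:**
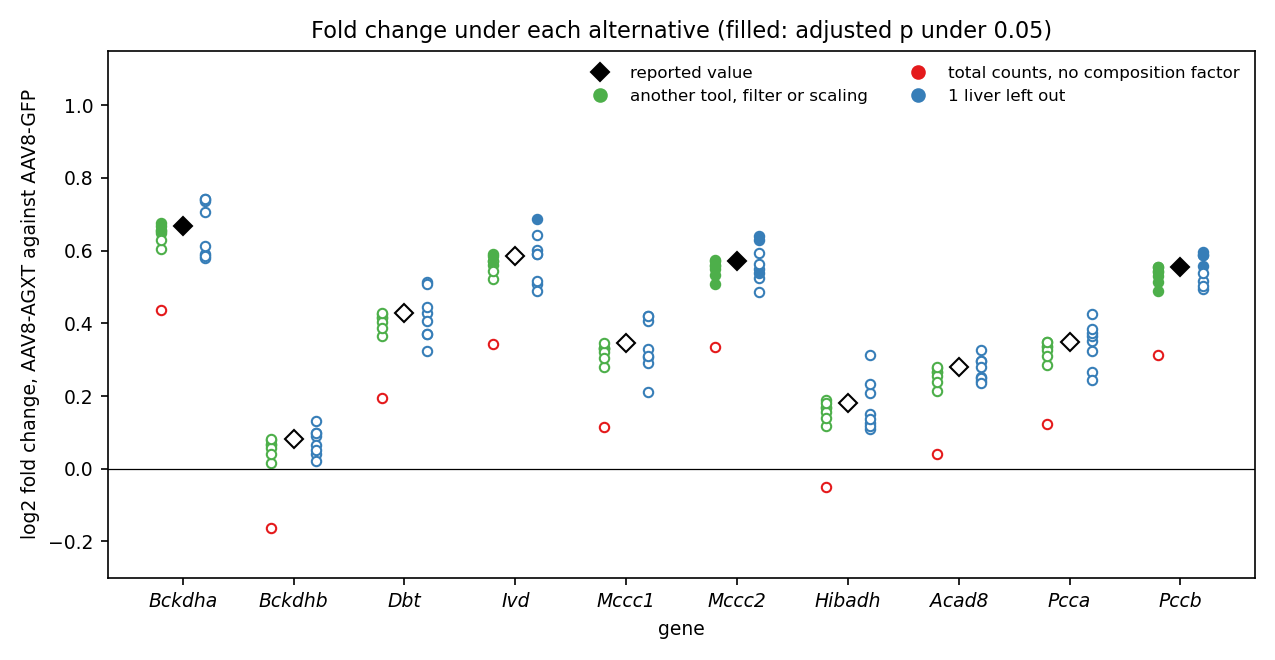
Log2 fold change of each of the 10 genes (x axis) as reported (black diamonds), under other tools, filters or scalings (green), with total counts and no composition factor (red) and with 1 liver left out (blue), filled where the adjusted p is under 0.05. The red points are the lowest for every gene and fall below 0 for Bckdhb and Hibadh.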

How the data were processed

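Liver RNA of 8 mice was sequenced as stranded, paired-end mRNA libraries. The authors used Trimmomatic 0.35 for trimming, HISAT2 2.1.0.13 for mapping to GRCm38 and HTSeq for counting on genes, and the deposited values are raw counts, not normalized. The strand option and overlap mode are not given in the sources used here. Mice were grouped by the labelled treatment, and none was left out. In R 4.3.3, edgeR 4.0.16 kept 15248 genes (filterByExpr), applied TMM factors and tested treatment by the quasi-likelihood test, and p-values were adjusted over these genes (Benjamini-Hochberg, threshold 0.05). Symbols came from GENCODE M21, which matched 52489 of 52636 genes, and all 144 genes of the lists. Common biological variation was 23.3%, so spread between livers sets the precision. Log2 fold changes used a prior count of 0.125 and log2 CPM one of 2. Ratios were tested by exact permutation over 70 arrangements. Alternatives were DESeq2 1.42.0, limma-voom (limma 3.58.1), 3 other scalings, 2 other filters, robust estimation and each liver left out. Fits were tested on simulated data, drawn from edgeR's estimates of spread with no composition factor. There all 3 tools recovered the fold changes, edgeR and limma-voom kept false calls near the threshold, and DESeq2 exceeded the limit first set. That limit was kept for edgeR alone after this was seen, and summed markers with total counts were also added after seeing the data. Besides the 10 genes, genes were named if they belonged to BCKDH control or the transcription factors, and in other lists if called (at most 4) or among the 2 most abundant uncalled. The 10 genes and the lists were chosen with earlier results of these data known, and the motifs after the fits were seen. A gene of the lists is not reported here by name and stayed in the counts of its list.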

Additional observations from a re-analysis of the deposited data

Results flagged for a closer look

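In groups of 4 livers, 1 extreme liver stood far from the other 3 in 9 of 104 groups checked by Dixon's test, which chance gives in about 1 of 20. Pcca was at 71.7 CPM in AAV8-AGXT liver 309, while the other 3 of its group lay between 57.1 and 58.4 CPM. Hibadh was at 349 CPM in AAV8-GFP liver 315, against 247 to 260 CPM in the rest. The highest log2 ratio of Dbt to Bckdhb among AAV8-AGXT livers was -0.622, in liver 309. Ppm1k reached 107 CPM and Dld 110 CPM in 1 AAV8-AGXT liver each. Among AAV8-GFP livers the highest value stood apart for Hsd17b10 at 240 CPM, Pdhb at 132 CPM and Dlst at 202 CPM. The lowest AAV8-AGXT value of Pdp2, 43.0 CPM, stood apart from the other 3.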

How the results depend on the processing

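Of the 10 genes, 3 were called in the reported edgeR fit, 6 by DESeq2 (which made too many false calls on simulated counts) and 0 with total counts and no composition factor. The other pathway genes called were 7 as reported and 14 by DESeq2, and calls over the whole table were 664 as reported, 2078 by DESeq2 and 1001 with total counts. With upper-quartile factors 46.0% of calls over the table were higher. Leaving out 1 liver in turn gave 0 to 4 calls among the 10 genes, 0 to 7 among the other pathway genes and 2 to 643 over the whole table, with the log2 difference of the Bckdha to Bckdhb ratio between 0.46 and 0.70, Dbt to Bckdhb between 0.20 and 0.45, Pcca to Pccb between -0.31 and -0.14, Mccc1 to Mccc2 between -0.33 and -0.15, Bckdk to Ppm1k between -0.73 and -0.33 and Ivd to Acad8 between 0.22 and 0.39. The direction turned for Bckdhb (-0.16) and Hibadh (-0.051) with total counts only. Mccc2 and Pccb passed in 7 of 8 other settings and in 3 of 8 fits with 1 liver left out, Bckdha in 5 and 1, and Ivd in 4 and 1. Fewer samples or genes entered the left-out and filtered fits, and otherwise the cause was not tested. No paired analysis was possible because the animal numbers of the groups are all different. Depth did not limit these genes, whose lowest count was 619.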

Other observations

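Other mitochondrial complexes fed by or built like BCKDH were described by the same fit. Of 12 genes of the other 2-oxoacid dehydrogenase complexes and their control, 2 rose and none fell (2.45% and 1.9% of all tested genes), with a median log2 fold change of 0.25. Dlst, the E2 core of 2-oxoglutarate dehydrogenase, rose from 180 ± 15.1 to 258 ± 27.2 CPM (SD over 4 livers; log2 fold change 0.52, SE 0.119, adjusted p = 0.0444 from edgeR). Pdp2, a phosphatase that activates pyruvate dehydrogenase, rose from 25.8 ± 7.06 to 51.3 ± 5.56 CPM (log2 fold change 0.99, SE 0.177, adjusted p = 0.0303 from edgeR). Ogdh, the E1 of the same 2-oxoglutarate complex, averaged 211 ± 20.3 and 249 ± 14.3 CPM (log2 fold change 0.24, adjusted p = 0.215 from edgeR), and Pdhb, an E1 subunit of pyruvate dehydrogenase, averaged 112 ± 13.5 and 120 ± 10.1 CPM (log2 fold change 0.11, adjusted p = 0.587 from edgeR).

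The TCA cycle receives the succinyl-CoA made from propionate. Of 12 of its genes, 1 rose and none fell (2.45% and 1.9% of all tested genes), with a median log2 fold change of 0.20. Sdhd, a membrane anchor of succinate dehydrogenase, rose from 134 ± 11.7 to 191 ± 22.8 CPM (SD over 4 livers; log2 fold change 0.51, SE 0.122, adjusted p = 0.0489 from edgeR). Sdha, the flavoprotein of the same enzyme, averaged 309 ± 45.2 and 405 ± 44.8 CPM (log2 fold change 0.39, adjusted p = 0.123 from edgeR), and Mdh2, malate dehydrogenase, averaged 233 ± 17.6 and 253 ± 25.9 CPM (log2 fold change 0.12, adjusted p = 0.564 from edgeR).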
